A study of Homo sapiens with 8 samples.

Results

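The hypoxia response described here is that of DKS-5, a colon cancer cell line that the labels call K-ras mutant. It was chosen by sample label: the 2 arrays of DKS-5 cells kept for 12 h at 1% O2 (hypoxia) were set against the 2 arrays of DKS-5 cells kept at 21% O2 (normoxia), which is 4 of the 8 arrays in the series. The other 4 arrays hold DKO-3 cells, 2 after 12 h at 1% O2 and 2 at 21% O2. The labels describe DKO-3 both as K-ras wild-type and as a K-ras knockout, and no other allele or agent is named for either line. As background, both lines are clonal derivatives of the colon cancer line DLD-1, so each stands for 1 clone. All cells were harvested at 70% confluency in standard medium. Expression was measured on Affymetrix probe set arrays after amplification of total RNA with a NuGEN kit, and signals are MAS5 intensities scaled to a common level. Nothing in the labels states that replicate samples are separate cultures. The p-values therefore measure only the spread between the arrays at hand, and that spread may be technical.

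Cells sense oxygen through the HIF transcription factors. When oxygen is plentiful, prolyl hydroxylases of the EGLN family mark HIF alpha subunits for destruction through the VHL protein. When oxygen falls, the subunits persist, pair with ARNT and bind short DNA motifs near genes of sugar uptake, glycolysis, vessel growth and mitochondrial economy. HIF1A is controlled mainly at the level of its protein, so its transcript need not follow its activity.

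Of 12735 genes tested, 64 were higher and 0 were lower in DKS-5 hypoxia than in DKS-5 normoxia (limma, Benjamini-Hochberg adjusted p below 0.05), which is 0.503% of the genes tested. All 64 had both hypoxia arrays above both normoxia arrays, an arrangement seen in 19.9% of all genes. The reverse arrangement was seen in 15.6%. The 64 were chosen on these same arrays, so their own arrangement is no further support for them. Differences are given on the scale log2(signal + 16), which understates the change of dim genes. They ran from 0.63 to 3.82 in the 64 genes, with a median of 1.55, against a median of 0.022 over all genes tested. There were 17 genes with a difference of 2 or more, 42 between 1 and 2, and 5 below 1. In normoxia 10 of the 64 genes had a mean signal under 13.8, the level of the filter on dim probe sets. They passed that filter only through the arrays on which they were bright. In such bulk samples, fewer cells with a transcript and less of it per cell cannot be told apart.

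**Figure D1:**
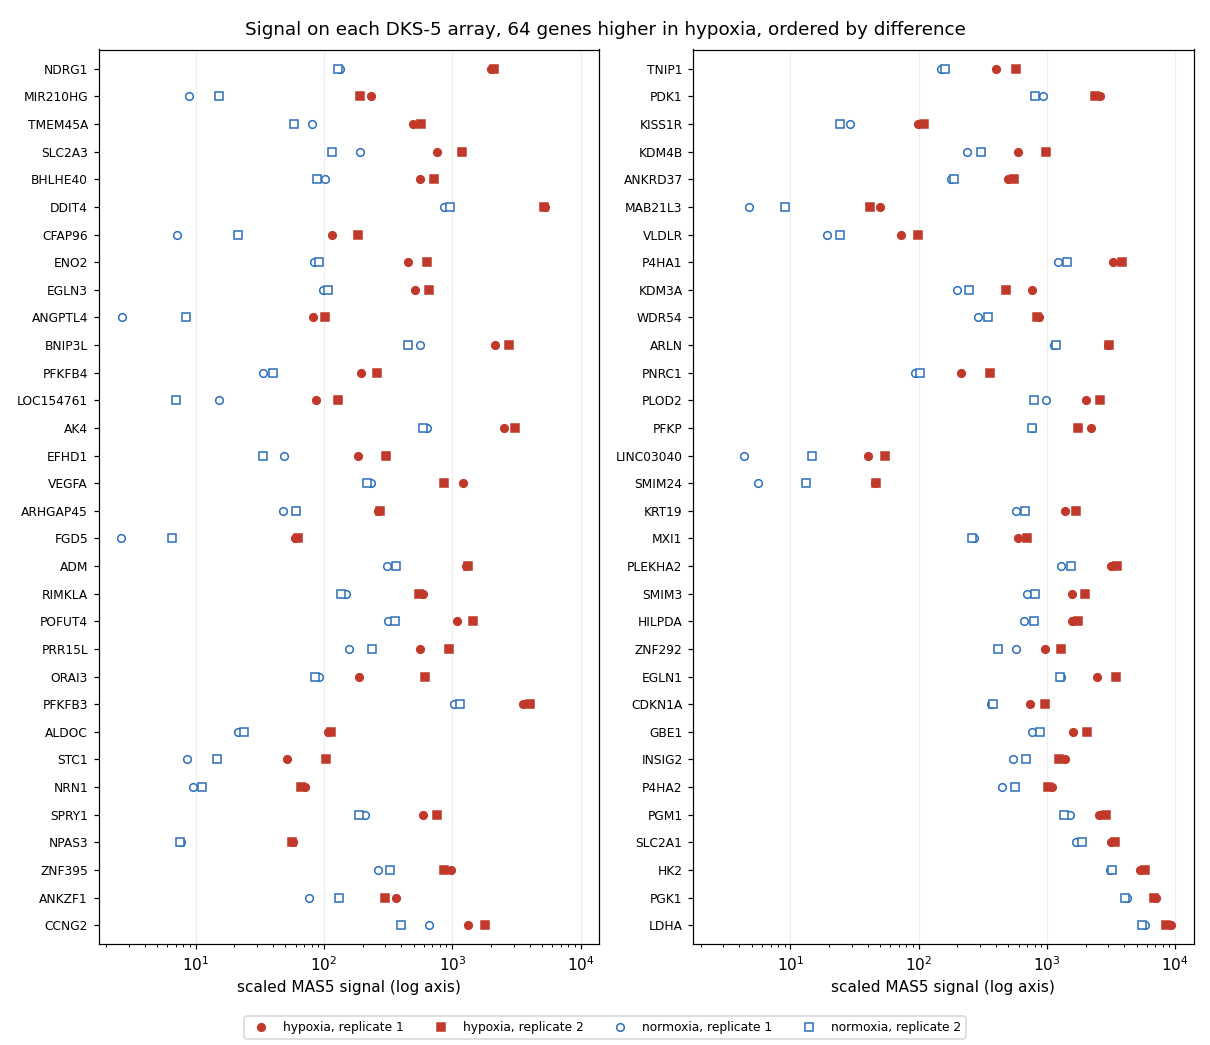
Scaled MAS5 signal (log axis) on each of the 4 DKS-5 arrays for the 64 genes higher in hypoxia, ordered by their log2 difference from the top left to the bottom right. Filled red symbols are hypoxia and open blue symbols normoxia, with circles for replicate 1 and squares for replicate 2. In every gene both red symbols lie to the right of both blue ones, which the choice of the genes on these same arrays favours.

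The 4 arrays were not equally alike. The 2% trimmed mean of the deposited signals ran from 133 to 156 on the hypoxia arrays and from 170.3 to 174 on the normoxia arrays before scaling. Between the 2 hypoxia arrays log2 values differed with an SD of 0.465 over genes, and between the 2 normoxia arrays with an SD of 0.309. The 3' to 5' signal ratio of ACTB, which stands for RNA quality, was 54.8 and 25.6 in hypoxia against 55.1 and 34.3 in normoxia. With that ratio as a covariate 61 genes passed in place of 64. Of 12 colon epithelial markers with a probe set, 9 were bright enough to be tested, among them EPCAM, CDH1 and CDH17, while CDX1, LGALS4 and GPA33 stayed below the filter on average. The summed signal of these 12 was 23331 and 22010.4 in hypoxia against 18572 and 20223.5 in normoxia. The summed signal of 15 markers of blood, vessel, connective, nerve and liver cells was 279.7 and 257 in hypoxia against 243 and 259.7 in normoxia. Only 4 of the 15 passed the filter (COL1A1, ACTA2, DES and HBB), and none of these passed the test. PTPRC, CD3E, PECAM1, VWF and ALB were among the 11 that stayed under it.

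The largest single rise was that of NDRG1, a stress-induced member of the N-myc downstream regulated family. Its signal was 1996 and 2097 in hypoxia against 132 and 127 in normoxia, so the arrays within each group were nearly equal and the groups lay far apart. The difference was 3.82 ± 0.20 (SE, 2 arrays per group; limma adjusted p = 7.33e-08), a 14.1-fold rise on this scale. DDIT4, which encodes an inhibitor of the growth kinase mTORC1, had 5297 and 5225 in hypoxia and 867 and 953 in normoxia. Its difference of 2.51 ± 0.16 (limma adjusted p = 6.28e-07) had the second smallest p in the comparison. Of the 10 tested genes listed as brakes on mTOR and growth, these 2 rose, where 0.503% of all genes tested did. The list median was 0.35. TXNIP, an inhibitor of thioredoxin and glucose uptake, had 312 and 436 in hypoxia and 208 and 194 in normoxia, with a difference of 0.83 that did not pass (limma adjusted p = 0.306).

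MIR210HG, from which the hypoxia-associated microRNA miR-210 is cut, was near the detection range of the array in normoxia. Its signal was 233 and 191 in hypoxia against 8.91 and 15.2 in normoxia, a difference of 3.03 ± 0.28 (limma adjusted p = 4.06e-05). A second probe set of MIR210HG gave 2.21. The array measured the host transcript and not the mature microRNA, whose 2 arms are shown for reference from RefSeq (GRCh38.p14, minus strand). Capitals mark the seed, bases 2 to 8, the part that pairs with target messages. The 3p arm lies at chr11:568112-568133 and the 5p arm at chr11:568150-568171.
hsa-miR-210-3p: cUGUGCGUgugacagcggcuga
hsa-miR-210-5p: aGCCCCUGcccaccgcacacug

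Sugar uptake and glycolysis formed the largest group. Of its 20 listed and tested genes, 10 rose, 0 fell and 10 did not pass, where 0.503% of all genes tested rose. The list median was 0.80 against 0.022 over all genes. The hypoxia arrays lay above the normoxia arrays in 17 of the 20 genes and below them in 1, against 19.9% and 15.6% of all genes. The count of 10 became 13 without hypoxia replicate 1, 8 without hypoxia replicate 2, 5 without normoxia replicate 1 and 6 without normoxia replicate 2.

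Among transporters, SLC2A3, the high-affinity glucose carrier GLUT3, had 763 and 1194 in hypoxia against 192 and 114 in normoxia (difference 2.56 ± 0.27, limma adjusted p = 0.000128). SLC2A1, the carrier GLUT1 of most proliferating cells, was already bright, with 3178 and 3386 in hypoxia against 1697 and 1865 in normoxia, and its difference was 0.88 ± 0.17 (limma adjusted p = 0.026). Both carriers thus rose, by different amounts on this scale. The call of SLC2A1 ended when hypoxia replicate 2 or either normoxia replicate was left out and with the RNA quality covariate, whereas that of SLC2A3 held in each of these.

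PFKFB3 and PFKFB4, which encode enzymes that set the level of fructose 2,6-bisphosphate, an activator of phosphofructokinase, both rose. PFKFB3 had 3529.6 and 4057 in hypoxia and 1031 and 1153 in normoxia (difference 1.78 ± 0.17, limma adjusted p = 4.35e-05). PFKFB4 had 194 and 259 in hypoxia and 33.5 and 39.9 in normoxia (difference 2.19 ± 0.25, limma adjusted p = 0.000246), although its second, dimmer probe set gave -0.04. The platelet-type phosphofructokinase gene PFKP had 2212 and 1730.0 in hypoxia and 759 and 768 in normoxia (difference 1.34). PFKP lost its call without normoxia replicate 1, and its second probe set gave 0.22.

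HK2, the hexokinase that traps glucose in the cell, depended on the probe set. Its brightest probe set gave 5334 and 5828 in hypoxia and 3099 and 3218 in normoxia, a rise of 0.82 ± 0.15 (limma adjusted p = 0.0159). A second probe set gave 166 and 122 in hypoxia and 464 and 459 in normoxia, a difference of -1.59 in the opposite direction. The other one, also above the filter on dim probe sets, gave -0.66, and both of these had the hypoxia arrays below the normoxia arrays. The mean over the 3 probe sets was -0.48 (limma adjusted p = 0.532). HK2 thus stands among the 64 through 1 of its 3 probe sets. Its call also ended without hypoxia replicate 2 or either normoxia replicate.

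In the lower part of the pathway 4 genes rose, by amounts of different size. ENO2, the neuronal enolase gene, had 449.8 and 630.3 in hypoxia against 82.9 and 91.0 in normoxia (difference 2.41 ± 0.25, limma adjusted p = 0.000128). ALDOC, the brain aldolase gene, had 108 and 113 in hypoxia against 21.3 and 23.6 in normoxia (difference 1.72 ± 0.25, limma adjusted p = 0.00221). In both genes the arrays within a group lay close together relative to the gap between groups. PGK1, phosphoglycerate kinase, rose by 0.75 ± 0.13 (limma adjusted p = 0.00904) to 7049.9 and 6823 in hypoxia, against 4179 and 4043 in normoxia. LDHA, which turns pyruvate into lactate, rose by 0.63 ± 0.12 (limma adjusted p = 0.024) to 9225 and 8509, against 5857 and 5548 in normoxia. The calls of PGK1 and LDHA ended without either normoxia replicate. That of LDHA also ended with the RNA quality covariate and with quantile normalization, where that of PGK1 held. Of the 10 pathway genes that did not pass, 7 had both hypoxia arrays above both normoxia arrays, as did 19.9% of all genes. These 7, named after their values were seen, were ALDOA (0.88), ENO1 (0.85), TPI1 (0.77), GPI (0.68), PGAM1 (0.57), HK1 (0.52) and GAPDH (0.47).

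Enzymes that store glucose as glycogen gave 2 rises among 11 tested genes, where 0.503% of all genes tested rose. The list median was 0.37. GBE1, the glycogen branching enzyme, had 1605 and 2039.8 in hypoxia against 759 and 878 in normoxia (difference 1.13 ± 0.21, limma adjusted p = 0.0196). PGM1, phosphoglucomutase, had 2523 and 2899 in hypoxia against 1499.8 and 1361 in normoxia (difference 0.91 ± 0.18, limma adjusted p = 0.0285). PPP1R3B, a glycogen-targeting subunit of protein phosphatase 1, was at 1.07 (limma adjusted p = 0.0924) and GYS1, glycogen synthase, at 0.59 (limma adjusted p = 0.698). The count of 2 became 4 without hypoxia replicate 1 and 0 without any 1 of the other 3 arrays.

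Of 14 tested genes of pyruvate entry and mitochondrial adaptation, 4 rose (median 0.58), where 0.503% of all genes tested did. AK4, a mitochondrial adenylate kinase, had 2512 and 3075 in hypoxia and 633 and 586 in normoxia (difference 2.16 ± 0.19, limma adjusted p = 4.06e-05). Its 3 further probe sets gave 1.52 to 2.16. BNIP3L, a receptor for the removal of mitochondria by autophagy, had 2148 and 2758 in hypoxia and 564 and 455 in normoxia (difference 2.23 ± 0.22, limma adjusted p = 7.7e-05). PDK1, the kinase that shuts pyruvate dehydrogenase, had 2598 and 2383 in hypoxia and 939 and 807 in normoxia (difference 1.50 ± 0.23, limma adjusted p = 0.00302). MXI1, an antagonist of MYC, had 589 and 703 in hypoxia and 269 and 258 in normoxia (difference 1.24 ± 0.23, limma adjusted p = 0.0221). PDK1 lost its call without normoxia replicate 2, and MXI1 without hypoxia replicate 2 or either normoxia replicate. FAM162A (0.89, limma adjusted p = 0.0755) and PDK3 (1.05, limma adjusted p = 0.0965), named after their values were seen, did not pass.

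Of 17 tested genes of the respiratory chain and the citric acid cycle 0 passed, where 0.503% of all genes tested did, so that the count says little about this list. Their median was 0.028, and their differences ran from -0.36 to 0.26. The lowest was IDH3A, a subunit of isocitrate dehydrogenase, with 1665 and 1559 in hypoxia against 2111 and 2045 in normoxia. None of 6 tested genes of lactate export and pH regulation passed either, a count that says as little about that list. The bicarbonate transporter gene SLC4A7 was at -0.59 (limma adjusted p = 0.653), and 4 listed genes of this group are not analysed here.

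In the oxygen-sensing pathway, 2 genes of HIF prolyl hydroxylases rose, EGLN3 and EGLN1, while EGLN2 and HIF3A lay under the filter and were not tested. EGLN3 had 515 and 659 in hypoxia against 97.3 and 107 in normoxia (difference 2.35 ± 0.27, limma adjusted p = 0.000236). EGLN1, the main hydroxylase in normoxia, had 2436 and 3471 in hypoxia against 1296 and 1273 in normoxia (difference 1.17 ± 0.20, limma adjusted p = 0.00825). BHLHE40, a transcriptional repressor with roles in the circadian clock, had 563 and 719 in hypoxia against 101 and 88.7 in normoxia (difference 2.56 ± 0.29, limma adjusted p = 0.000236). HIF1A lay lower on both hypoxia arrays, 1978 and 1599 against 2606 and 2542 in normoxia, without passing (-0.53, limma adjusted p = 0.632). EPAS1, which encodes HIF2 alpha, had 157 and 138 in hypoxia and 143 and 101 in normoxia, so its groups overlapped. In all 3 of 11 tested genes of this list rose, where 0.503% of all genes tested did, and the list median was 0.26. The call of EGLN1 ended without hypoxia replicate 2 or either normoxia replicate.

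Among secreted factors that act on vessels, 4 of 9 tested genes rose, where 0.503% of all genes tested did. VEGFA, the main growth factor of endothelium, had 1200.3 and 865 in hypoxia against 231 and 214 in normoxia (difference 2.12 ± 0.24, limma adjusted p = 0.000206). Its 3 other probe sets also had both hypoxia arrays on top, with differences of 1.04 to 1.24, so the size of the rise depended on the probe set. ADM, the vasodilator adrenomedullin, had 1287 and 1313 in hypoxia and 309 and 366 in normoxia (difference 1.90 ± 0.23, limma adjusted p = 0.000321). ANGPTL4, a secreted inhibitor of lipoprotein lipase, had 81.6 and 101 in hypoxia and 2.65 and 8.36 in normoxia (difference 2.33 ± 0.25, limma adjusted p = 0.000128), and its second probe set gave -0.06. STC1, the glycoprotein hormone stanniocalcin 1, had 51.0 and 103 in hypoxia and 8.51 and 14.6 in normoxia (difference 1.71 ± 0.29, limma adjusted p = 0.00844). The call of STC1 ended without hypoxia replicate 2 or normoxia replicate 1, and its 2 other probe sets, both under the filter, gave 0.087 and 0.41. The list median was 0.37.

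Enzymes that need oxygen as a substrate appeared in 2 further lists. Of 8 tested genes of collagen hydroxylation and lysyl oxidation, 3 rose (median 0.36), where 0.503% of all genes tested did. P4HA1, a catalytic subunit of collagen prolyl hydroxylase, had 3253 and 3849.8 in hypoxia and 1221 and 1431 in normoxia. Its difference was 1.41 ± 0.18 (limma adjusted p = 0.000506), and its second probe set gave -0.03. PLOD2, a collagen lysyl hydroxylase, rose by 1.36 ± 0.19 and P4HA2, the paralogue of P4HA1, by 1.06 ± 0.21. The call of PLOD2 ended without normoxia replicate 2, and that of P4HA2 without hypoxia replicate 2 or either normoxia replicate. Of 15 tested histone and DNA demethylase genes and relatives, 2 rose (median 0.18), where 0.503% of all genes tested did. KDM4B, a histone H3 lysine 9 demethylase, had 589 and 978 in hypoxia against 237 and 309 in normoxia (difference 1.44 ± 0.26, limma adjusted p = 0.0163). KDM3A, also a lysine 9 demethylase, had 765 and 483 in hypoxia against 199.7 and 247 in normoxia (difference 1.39 ± 0.28, limma adjusted p = 0.031). Its second probe set gave 0.31, and the further probe sets of KDM4B gave -0.006 to 1.42. Each of the 2 demethylase calls held in 1 of the 4 fits that left out 1 array, that of KDM4B without hypoxia replicate 1 and that of KDM3A without hypoxia replicate 2.

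Lipid handling gave 2 rises among 9 tested genes of lipid droplets and lipoprotein uptake (median 0.35), where 0.503% of all genes tested rose. HILPDA, a lipid droplet protein that inhibits the triglyceride lipase ATGL, had 1570.0 and 1734 in hypoxia against 661 and 790.4 in normoxia (difference 1.17 ± 0.21, limma adjusted p = 0.0165). VLDLR, the very low density lipoprotein receptor, had 73.1 and 98.9 in hypoxia against 19.2 and 24.5 in normoxia (difference 1.42 ± 0.26, limma adjusted p = 0.0163). Both calls held without hypoxia replicate 1 and ended without any 1 of the other 3 arrays. INSIG2, which holds the sterol-sensing machinery in the endoplasmic reticulum and was in no list, had 1376 and 1248 in hypoxia against 543 and 689 in normoxia (difference 1.08 ± 0.20, limma adjusted p = 0.0221), and its call was lost in the same fits. Among 11 tested genes of cholesterol synthesis 0 passed, a count that says little where 0.503% of all genes tested did. Their median was 0.55. In 9 of them both hypoxia arrays lay above both normoxia arrays, as in 19.9% of all genes. MSMO1, a sterol demethylase gene, had 4834 and 5358 in hypoxia and 2632 and 3415 in normoxia (difference 0.76, limma adjusted p = 0.0725). HMGCS1 was at 0.59 and SQLE at 0.70.

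**Figure D2:**
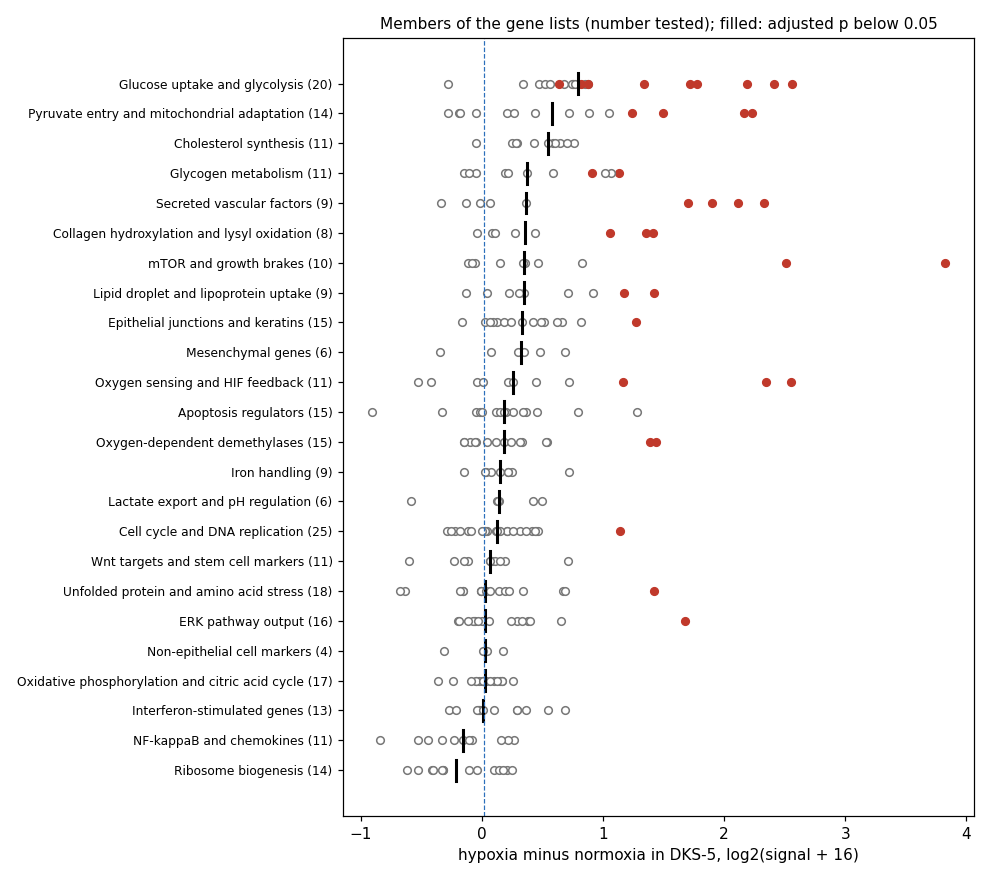
Difference between hypoxia and normoxia in DKS-5, on the scale log2(signal + 16), for each tested member of 24 gene lists, with the number tested in brackets. Filled circles passed the test, black bars are list medians and the dashed line is the median of all genes at 0.022. Filled circles gather in the lists of glycolysis, mitochondrial adaptation, vascular factors and oxygen sensing, and none lies left of the dashed line.

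A further 29 of the 64 genes belonged to none of the fixed lists, MIR210HG and INSIG2 among them. Several encode proteins of the membrane or of calcium handling. TMEM45A, a transmembrane protein, had 491 and 569.7 in hypoxia against 80.9 and 58.5 in normoxia (difference 2.68 ± 0.29, limma adjusted p = 0.000128). EFHD1, a calcium-binding protein of mitochondria, had 183 and 303 in hypoxia against 49.0 and 33.3 in normoxia (difference 2.15 ± 0.28). ARLN, a micropeptide that inhibits the calcium pump SERCA, had 2983 and 3029 in hypoxia against 1124 and 1166 in normoxia (difference 1.38 ± 0.17, limma adjusted p = 0.000411), and its 2 other probe sets gave 1.30 and 1.53. ORAI3, a subunit of store-operated calcium channels, had 186 and 615 in hypoxia against 91.2 and 84.5 in normoxia. Its difference of 1.78 ± 0.38 only just passed (limma adjusted p = 0.0491), and its call was lost without any 1 array other than hypoxia replicate 1. The kisspeptin receptor gene KISS1R had 99.4 and 110.1 in hypoxia against 29.3 and 24.3 in normoxia (difference 1.50 ± 0.24), with its call lost in the same fits as that of ORAI3.

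Genes of intracellular signalling formed another part. ARHGAP45 had 265 and 274 in hypoxia against 47.6 and 60.1 in normoxia (difference 2.04 ± 0.24, limma adjusted p = 0.000331), whereas its second probe set, also above the filter, gave 0.093 with overlapping groups. FGD5, an exchange factor for CDC42, had 59.3 and 63.0 in hypoxia against 2.63 and 6.47 in normoxia (difference 1.91 ± 0.29), and its second probe set gave 1.80. Its call ended without normoxia replicate 1 (limma adjusted p = 0.0614). PLEKHA2, a phosphoinositide-binding adaptor, rose by 1.23 ± 0.22, and its 2 other probe sets gave 1.02 and 1.50, but its call ended without hypoxia replicate 2 or either normoxia replicate. SPRY1, a feedback inhibitor of receptor tyrosine kinase signalling, was the only 1 of 16 tested ERK output genes to rise. Over all genes tested, 0.503% rose. The signal of SPRY1 was 586 and 759 in hypoxia against 207 and 188 in normoxia (difference 1.68 ± 0.23, limma adjusted p = 0.0013). The second SPRY1 probe set gave -0.15, and the median of the ERK list was 0.030.

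Among the others, NPAS3, a basic helix-loop-helix PAS factor, had 56.9 and 56.2 in hypoxia against 7.60 and 7.59 in normoxia (difference 1.62 ± 0.23, limma adjusted p = 0.00189). Its 8 other probe sets all lay under the filter and gave -0.50 to 0.71, so the rise rests on 1 probe set. In the RefSeq gene order NPAS3 and EGLN3 are neighbours on chromosome 14, with no tested gene between them, and they were the only neighbouring pair among the 64. ZNF395, a zinc finger factor, had 977 and 859 in hypoxia against 264 and 325 in normoxia (difference 1.59 ± 0.22). Its 2 other probe sets, both under the filter, gave -0.06 and 0.55, and its call ended with the mean of all probe sets. CDKN1A, the cell cycle inhibitor p21, had 738 and 968 in hypoxia against 368 and 379 in normoxia (difference 1.15 ± 0.22, limma adjusted p = 0.022). It was the only 1 of 25 tested genes of cell cycle and DNA replication to rise, where 0.503% of all genes tested rose. The list median was 0.13. CCNG2, a cyclin associated with cell cycle arrest, rose by 1.57 ± 0.32 (limma adjusted p = 0.0385). The calls of CDKN1A and CCNG2 ended without hypoxia replicate 2 and without normoxia replicate 2, that of CDKN1A also without normoxia replicate 1. Among the fits that left out 1 array, the call of ZNF395 ended only without normoxia replicate 1.

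Other enzymes and proteins of varied or unclear function completed the set. RIMKLA, which joins glutamate to N-acetylaspartate, had 589 and 549 in hypoxia against 149 and 135 in normoxia (difference 1.89 ± 0.27, limma adjusted p = 0.00175). POFUT4, a protein O-fucosyltransferase, had 1078 and 1460.5 in hypoxia against 317 and 355 in normoxia (difference 1.85 ± 0.24), and its second probe set gave 1.60. CFAP96, named for cilia and flagella, had 116 and 184 in hypoxia against 7.14 and 21.4 in normoxia (difference 2.46 ± 0.29, limma adjusted p = 0.000256). NRN1, the membrane-anchored protein neuritin, had 71.5 and 65.7 in hypoxia against 9.55 and 11.1 in normoxia (difference 1.68 ± 0.26). KRT19, a keratin of simple epithelia, had 1388 and 1669 in hypoxia against 571 and 671 in normoxia (difference 1.28 ± 0.24, limma adjusted p = 0.0221). It was the only 1 of 15 tested junction and keratin genes to rise, where 0.503% of all genes tested rose. The remaining genes were LOC154761 (2.18), PRR15L (1.84), ANKZF1 (1.58), TNIP1 (1.54), ANKRD37 (1.44), MAB21L3 (1.43), WDR54 (1.38), PNRC1 (1.38), LINC03040 (1.33), SMIM24 (1.30), SMIM3 (1.21) and ZNF292 (1.17). The second probe sets of TNIP1 and ANKRD37, both under the filter, each gave -0.04. MAB21L3 lost its call when any 1 of the 4 arrays was left out, and KRT19 when any 1 other than hypoxia replicate 1 was.

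**Figure D3:**
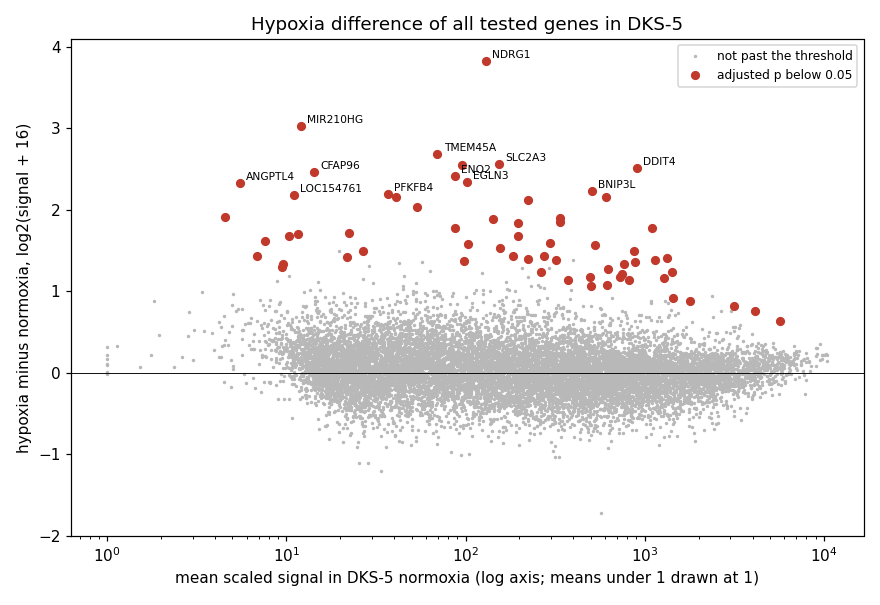
Hypoxia minus normoxia difference in DKS-5, on the scale log2(signal + 16), against the mean scaled signal in DKS-5 normoxia (log axis), for all 12735 genes tested. Red points are the 64 that passed, and grey points did not. All red points lie above 0, from 0.63 to 3.82.

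In genes with several probe sets, the further probe sets above the filter on dim probe sets mostly rose as well. Of the 64 genes, 26 had 1 probe set and 38 had several, with 75 probe sets beside those used for the test. Of these 75, 51 lay above the filter, and 47 of the 51 had positive differences. In 45 both hypoxia arrays lay above both normoxia arrays, as in 19.9% of all genes tested. Of the 24 dimmer ones, 14 had positive differences and 9 had hypoxia arrays all on top. The 4 above the filter with negative differences were the 2 of HK2 and those of SPRY1 and P4HA1 given above. The filter used the mean over all arrays, so a probe set could pass it through its hypoxia arrays alone. The second probe set of FGD5, above the filter, had 52.7 and 38.7 in hypoxia against 1.40 and 1.84 in normoxia. The contrast between probe sets above and below the filter is therefore partly set by the filter. All probe sets were read from the same arrays, so they are no independent check of the calls. With the mean of all probe sets in place of the brightest, 40 genes passed, and 38 of the 64 kept their calls.

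The promoters of the genes that rose were searched for the core of the HIF-binding motif, ACGTG or GCGTG, on both strands in the 250 bases before each annotated start (RefSeq, GRCh38.p14). A palindrome CACGTG counts on both strands, and matches that share bases are counted separately. Promoters were found in the table for 51 of the 64 genes, 72 starts in all, and for 10344 of the 12735 genes tested, 15005 starts in all. ACGTG was present before 48.6% of the starts of the genes that rose and before 22% of the starts of all tested genes. GCGTG was present before 45.8% and 42.4% of them, and either motif before 70.8% and 53.8%. Over all 35114 promoters of the table the shares were 18.5% for ACGTG and 32.2% for GCGTG. These are counts of letters without a test, and a match is not a binding site. EGLN3, SLC2A1, NPAS3 and TMEM45A were among the 11 of the 51 genes with no match in any of their windows.

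Shown are 60 bases around a match for 6 of the largest rises that have 1, so that the motif can be seen in its surroundings. Each run reads 5′ to 3′ on the strand of the gene, and capitals mark the match. The windows lie at chr11:568458-568517 (minus strand) for MIR210HG, chr3:4979261-4979320 (plus) for BHLHE40, chr10:72273844-72273903 (plus) for DDIT4, chr4:185426194-185426253 (plus) for CFAP96, chr12:6914435-6914494 (plus) for ENO2 and chr19:8363905-8363964 (plus) for ANGPTL4. The BHLHE40 window holds 2 matches, 174 and 149 bases before the start, and the second reads on the opposite strand, as does the single match of ANGPTL4.
MIR210HG: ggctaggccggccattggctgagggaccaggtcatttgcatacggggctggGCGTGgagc
BHLHE40: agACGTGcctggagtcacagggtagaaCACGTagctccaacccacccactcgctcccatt
DDIT4: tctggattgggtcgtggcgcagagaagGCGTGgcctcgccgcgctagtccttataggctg
CFAP96: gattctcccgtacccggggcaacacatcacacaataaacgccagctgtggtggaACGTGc
ENO2: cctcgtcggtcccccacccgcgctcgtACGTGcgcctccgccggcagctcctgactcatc
ANGPTL4: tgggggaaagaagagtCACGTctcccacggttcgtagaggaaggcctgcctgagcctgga

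No gene was lower in DKS-5 hypoxia past the threshold. At an unadjusted p below 0.05 limma gave 313 lower and 569 higher genes of the 12735 tested. A share of 0.05, both directions together, would pass that level without any difference. The count of lower genes therefore shows no set of lowered genes. The 5 lower genes with the smallest p were ST8SIA5, BCL2L10, EPB41L4A-AS1, BDNF and TTC4. ST8SIA5, a sialyltransferase gene, had 6.51 and 2.96 in hypoxia against 27.3 and 29.6 in normoxia (-1.10 ± 0.24, limma adjusted p = 0.0713). BCL2L10, a BCL2 relative, had 4.66 and 5.85 in hypoxia against 42.3 and 25.3 in normoxia (-1.21 ± 0.28, limma adjusted p = 0.0953). BDNF, a neurotrophin gene, had 200.3 and 116 in hypoxia against 383 and 285 in normoxia (-1.04 ± 0.28, limma adjusted p = 0.223). In all 5 both hypoxia arrays lay below both normoxia arrays, as in 15.6% of all genes.

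No gene passed the threshold in the lists of ribosome biogenesis, apoptosis regulators, NF-kappaB and chemokines or interferon-stimulated genes. The same held for Wnt targets and stem cell markers, mesenchymal genes and iron handling, beside the lists already named. With 0.503% of all genes tested passing, such counts say little about these lists. The ribosome biogenesis list had the lowest median, -0.21 over 14 tested genes. In 7 of the 14 the hypoxia arrays lay below the normoxia arrays, as in 15.6% of all genes. RRS1, a ribosome assembly factor, had 2016 and 1379 in hypoxia and 2668 and 2480.1 in normoxia (-0.62, limma adjusted p = 0.458). The median of 11 NF-kappaB and chemokine genes was -0.16, with CXCL1 at -0.84 (limma adjusted p = 0.602) and CXCL2 at -0.53. Among stress response genes VLDLR alone passed, DDIT3 was at -0.68 and ASNS at -0.63, and the median of 18 was 0.030. The stem cell factor gene ASCL2 was at 0.71 (limma adjusted p = 0.247).

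The 2 hypoxia arrays gave the same direction in all 64 genes, which the choice of genes on these arrays favours, but not the same breadth of change. Relative to the normoxia mean, the median difference of the 64 was 1.48 on hypoxia replicate 1 and 1.62 on hypoxia replicate 2, and replicate 2 was the higher of the pair in 47 of them. When replicate 1 was left out, 167 genes were higher and 127 lower past the threshold, 1.31% and 0.997% of the genes tested, and 62 of the 64 kept their calls. When replicate 2 was left out, 40 genes were higher and 0 lower, and 39 of the 64 kept theirs. The 127 lower genes had a median difference of -0.99 on replicate 2, which chose them, and of -0.078 on replicate 1. On replicate 1, 65 of the 127 lay below both normoxia arrays, as did 33.2% of all genes tested. The 167 higher genes had medians of 1.38 on replicate 2, which chose them, and 0.58 on replicate 1, where 134 of the 167 lay above both normoxia arrays, as did 37.1% of all genes tested. Both sets were chosen against the same 2 normoxia arrays, so these counts are no independent check of them. The caspase gene CASP8 shows how far single genes could part: its signal was 338 and 1549.5 in hypoxia against 330.3 and 255 in normoxia, and its difference of 1.28 did not pass (limma adjusted p = 0.557). In the ACTB ratio, replicate 2 had the lowest value of the 4 arrays, and its part in these counts was not tested.

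**Figure D4:**
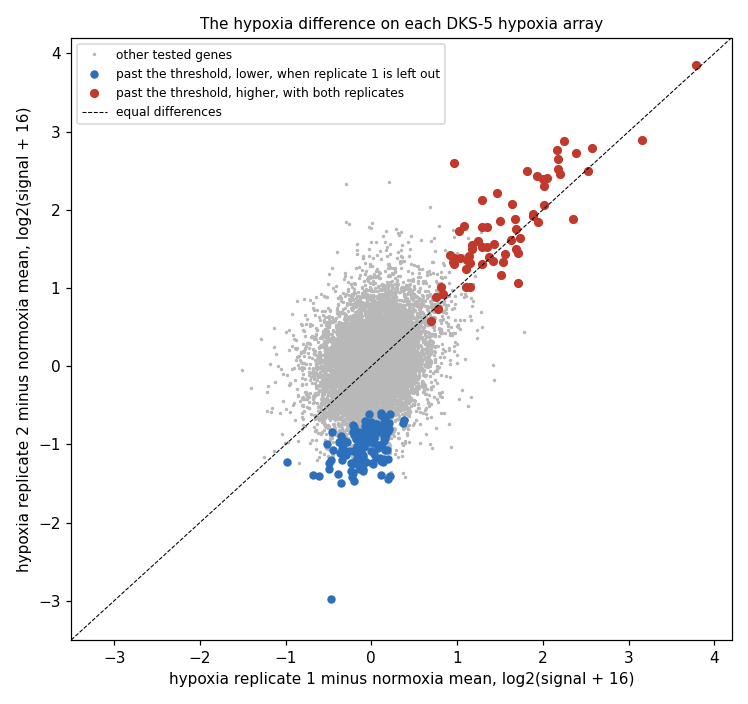
Difference of each DKS-5 hypoxia array from the mean of the DKS-5 normoxia arrays, on the scale log2(signal + 16), with replicate 1 on the horizontal and replicate 2 on the vertical axis and a dashed line of equality. Red points are the 64 genes higher in hypoxia with both replicates, and blue points the 127 lower past the threshold when replicate 1 is left out. The red points run along the dashed line, whereas the blue points spread downward near 0 on the horizontal axis.

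Of the 64 calls, 26 held in each of the 4 fits that left out 1 DKS-5 array. These were NDRG1, MIR210HG, TMEM45A, SLC2A3, BHLHE40, DDIT4, CFAP96, ENO2, EGLN3, ANGPTL4, BNIP3L, PFKFB4, LOC154761, AK4, EFHD1, VEGFA, ARHGAP45, ADM, RIMKLA, POFUT4, PFKFB3, ALDOC, SPRY1, NPAS3, P4HA1 and ARLN. Of calls not mentioned above, those of PRR15L, NRN1, ANKZF1 and WDR54 ended without normoxia replicate 1, that of LINC03040 without hypoxia replicate 2 or normoxia replicate 1, and that of ANKRD37 without either normoxia replicate. Those of TNIP1, PNRC1, SMIM24, SMIM3 and ZNF292 ended without any 1 array other than hypoxia replicate 1. In every 1 of the 14 other settings run, leave-outs included, 16 of the 64 kept their calls.

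In DKO-3 the same genes were mostly higher in hypoxia as well. Of the 64 genes, 63 had both DKO-3 hypoxia arrays above both DKO-3 normoxia arrays, an arrangement seen in 25% of all genes in that line. In DKO-3, 31 of the 64 passed the same test, where 0.346% of all genes did, and 33 did not. Having been chosen in DKS-5, the 64 had a median difference of 1.55 there, against 1.15 in DKO-3. It was larger in DKS-5 for 58 genes and smaller for 6, a direction that the choice of genes in DKS-5 favours. RNA quality by the ACTB ratio differed as well. It was 11.5 or less on the DKO-3 hypoxia arrays against 49.0 and 14.9 on those of DKO-3 normoxia. The part of this ratio in the counts above was not tested. With the ratio as a covariate, no gene passed the direct test of the difference between the lines.

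The difference between the responses of the lines, tested directly as DKS-5 minus DKO-3, passed for 0 genes. At an unadjusted p below 0.05 limma gave 333 of the 12735 genes tested. A share of 0.05 would pass that level without any difference. By p, DDIT4, NDRG1, VEGFA, KISS1R and ARLN led that test. KISS1R was the 1 gene of the 64 with overlapping DKO-3 groups, at 35.5 and 34.5 in DKO-3 hypoxia against 42.5 and 31.0 in DKO-3 normoxia. The excess in DKS-5 was 1.54 ± 0.34 for KISS1R, 1.54 ± 0.33 for VEGFA and 1.06 ± 0.24 for ARLN (SE, 2 arrays per group; each at limma adjusted p of at least 0.738). VEGFA had 296 and 275 in DKO-3 hypoxia against 198 and 173 in DKO-3 normoxia, a smaller step than in DKS-5 that did not pass in DKO-3 (limma adjusted p = 0.415). No gene of the DKS-5 response can therefore be called particular to DKS-5 from these arrays. A p that misses the threshold does not show that the lines respond alike.

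**Figure D5:**
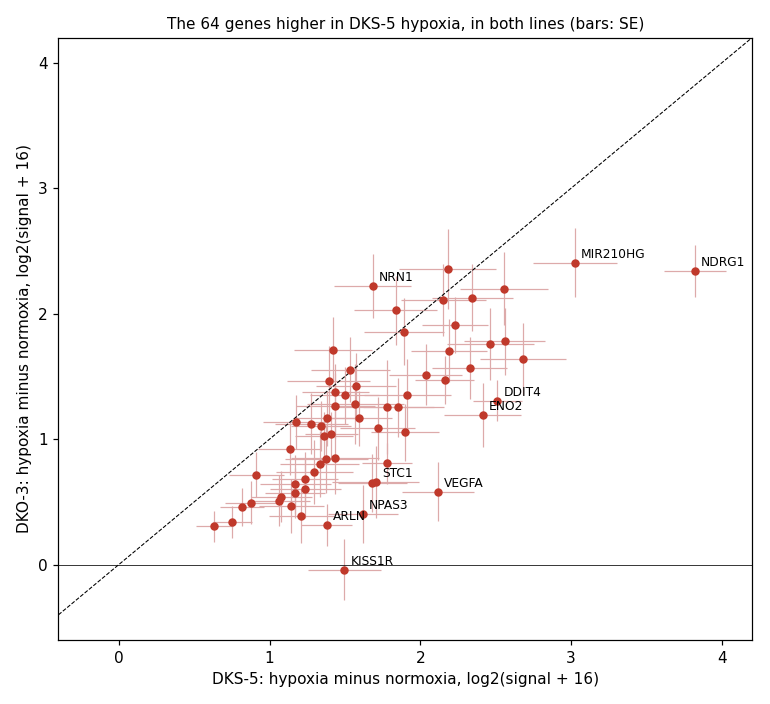
Hypoxia minus normoxia difference of the 64 genes in DKS-5 (horizontal) and DKO-3 (vertical), both on the scale log2(signal + 16), with bars of 1 SE and a dashed line of equality. All but KISS1R lie above 0 in DKO-3, and 58 of the 64 lie below the dashed line.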

How the data were processed

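The authors deposited 1 linear intensity per probe set for each of 8 arrays. The submitters' processing notes name MAS5, with neither version nor scaling target given in the sources used here. Each array was scaled to a 2% trimmed mean of 172.1, which differed 1.52-fold between arrays, and values were taken as log2(signal + 16). Control probe sets (62) were left out. Each gene with a single-gene probe set was represented by its brightest 1, and genes with a mean above the 40th percentile were tested (12735 of 19775). Groups were fitted over all 8 arrays with limma 3.58.1 in R 4.3.3 (lmFit, eBayes with a trend, two-sided, 4 residual and 11.3 prior degrees of freedom), adjusted after Benjamini-Hochberg over all genes tested. The number of arrays limits the precision.

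The rule named every gene past the threshold, the 5 lower genes and the 5 between-line differences with the smallest p, HIF1A and EPAS1. In each list it also took up to 4 members, by p and below an unadjusted 0.05. Not all of these members are described above: LPIN1 (0.91), PLIN2 (0.71) and IDI1 (0.43) are among those left out. No promoter of chromosome 8 is printed. Genes, the 25 lists (369 genes, 299 tested, 35 not analysed here) and rules were chosen with earlier results of these data known. Arrays of the same sample number were not shown to pair: their replicate deviations correlated at 0.10 in DKS-5 and -0.087 in DKO-3.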

Additional observations from a re-analysis of the deposited data

How the results depend on the processing

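The 64 genes higher in DKS-5 hypoxia became 35 with dim probe sets kept, 31 higher and 1 lower (32 in all) without array scaling, 40 with the mean of all probe sets and 36 in a fit of the 4 DKS-5 arrays. Leaving out single DKS-5 arrays gave 29 to 294 genes, 29 to 167 of them higher and 0 to 127 lower. Lower genes also numbered 2 with a pseudocount of 1 and 1 with quantile normalization. The count stayed within 1.5 times the original with a pseudocount of 64 (64), the 60th percentile filter (54) and the RNA quality covariate (61). With the sample number as a replicate block 83 genes passed, 80 higher and 3 lower, and all 64 kept their calls. Of the named differences, that of HK2 alone changed direction, to -0.48 with the mean of its probe sets. The difference between the lines passed for 0 genes in every setting run. The cause of these shifts was not tested.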
